A study of Mus musculus with 22 samples.

Results

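The genes described here are the protein-coding genes of mouse chromosome 17 that start within 10 Mb of Cyp1b1, the gene targeted in CYP1B1-/- mice. Cyp1b1 itself lies at chromosome 17, 79701537 to 79715061 (mm10), and the stretch runs from 69701537 to 89715061. Members were taken by position, with 7 genes of the stretch set aside by name, and were 105 of the 21793 protein-coding genes listed, with 45 at lower and 60 at higher coordinates than Cyp1b1. The 7 set aside by the rule were Cyp1b1, Nlrc4, Cox7a2l, Tgif1, Eif2ak2, Ndc80 and Ltbp1. RNA was sequenced from epithelial cells (ECs) sorted from lungs as live CD45-EpCAM+ singlets per the labels, and as CD31- too per the study's text, from mice of both sexes that were older than 7 weeks. At steady state there were 4 libraries from WT mice, 3 labelled AhR-/- and 3 labelled CYP1B1-/-. After intranasal house dust mite (HDM) extract of Dermatophagoides farinae, which raises allergic airway inflammation, there were 4 per genotype, counted in a separate table, so that state and table cannot be told apart. The knockout mice had been backcrossed to C57BL/6. The number of backcross generations and the strain in which Cyp1b1 was targeted are not given in the sources used here.

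A gene is commonly targeted in embryonic stem cells of another strain, and DNA that lies close to the targeted site tends to stay with it through backcrossing. Knockout and control mice can then differ in the sequence of the neighbouring genes as well as in the targeted gene. The comparison asked whether genes near Cyp1b1 were set apart in the libraries labelled CYP1B1-/-, both from WT and from the libraries labelled AhR-/-, whose targeted gene lies on chromosome 12. In this design the loss of CYP1B1 and the origin of its flanking DNA cannot be told apart.

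The libraries held between 9654825 and 17878442 counts. The members drew between 0.401% and 0.514% of the protein-coding counts at steady state and between 0.0652% and 0.699% after HDM, where the predicted gene Gm10800 took up to 71.9% of a library. Counts of Cyp1b1 went against the label, at 5.12 to 8.05 counts per mio (CPM) for CYP1B1-/- at steady state and at most 2.81 CPM in all others, and at 3.33 to 11.2 CPM after HDM against at most 2.04 CPM. Reads of a gene were summed over all of its exons, so a transcript that lacks some exons would still be counted. Counts per exon were not examined, and the cause of the higher Cyp1b1 counts was not tested. The epithelial markers Epcam, Cdh1, Krt8 and Krt18 are expressed in ECs, and 10 epithelial markers summed to 13436 to 32650 CPM at steady state and 2295 to 45744 CPM after HDM. After HDM, replicates 3 and 4 labelled AhR-/- carried far more Y-linked reads than the other HDM libraries, with up to 143 CPM summed over 4 genes against at most 0.227 CPM in the others. All steady-state libraries carried such reads, at 94.3 CPM or more, so that state and the presence of Y-linked reads cannot be told apart for WT and CYP1B1-/-. At steady state, replicate 2 labelled CYP1B1-/- stood apart from replicates 3 and 4 in Calm2, Lpin2, Epcam, Mcfd2, Srsf7, Slc30a6 and Thumpd2. It also stood apart from all other steady-state libraries beyond the members. Its epithelial markers summed to 13436 CPM (24852 CPM or more in the others) and its Y-linked genes to 94.3 CPM (228 CPM or more). Gm10800 took 29.2% of its counts (at most 21.7% in the others).

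Of the 105 members, 84 passed the filter on low counts at steady state and 81 after HDM, 78 of them in both tables. The 15 members left out of a fit over both tables held 7 to 133 counts each over all 22 libraries, and no member was at 0 in every library. Per kb of exon, Calm2 (a calmodulin gene, for the calcium sensor of many kinases) had the highest mean level at 313 CPM per kb, followed by Myl12a (a myosin light chain) at 108 and the Golgi gene Yipf4 at 79.3. Reads of Calm2 and of the neighbours Myl12a and Myl12b may be shared with near-identical copies, and their counts are uncertain to that degree.

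With the quasi-likelihood test of edgeR on all libraries, the test used below unless another is named, Srbd1 was the only member that passed in the comparisons of the libraries labelled CYP1B1-/- with WT, AhR-/- or both at steady state. With voom, 3 of 84 members (3.57%) passed against both genotypes, Gpatch11 and Heatr5b among them, and 0.09% of all genes did. Srbd1 lies at chromosome 17, 85984665 to 86145175, 6.27 Mb from Cyp1b1, and encodes a protein with an S1 domain, a fold known from RNA-binding proteins. At steady state, Srbd1 was at 8.78, 10.9, 12.5 and 13.2 CPM in WT and at 12.9, 12.8 and 12.2 CPM in the libraries labelled AhR-/-. The libraries labelled CYP1B1-/- held 2.91, 4.07 and 3.46 CPM. All 3 libraries labelled CYP1B1-/- were thus below all 7 others, with no overlap. Srbd1 fell by 1.70 on the log2 scale against WT (SE 0.21, adjusted p = 0.0237) and by 1.85 against the libraries labelled AhR-/- (SE 0.22, adjusted p = 0.0301). Among all 15547 genes tested, 2 (0.0129%) passed against WT and 1 (0.00643%) against AhR-/-, Srbd1 included in each. Of 84 members 1 (1.19%) did in each comparison, again Srbd1. Srbd1 was known from earlier results of these data when the members were chosen, so these shares are no test of the stretch. The call did not hold in a fit of the 2 compared groups alone, with an adjusted p of 0.324 against WT and 0.407 against AhR-/-, and leaving out single libraries moved the adjusted p against WT from 0.0107 to 0.203. In counts, Srbd1 had 29 to 61 reads in the libraries labelled CYP1B1-/- and 97 to 219 in the others.

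After HDM, Srbd1 was at 7.45, 6.36, 8.77 and 10.8 CPM in WT. The libraries labelled AhR-/- held 5.30, 6.20, 4.73 and 4.24 CPM, and those labelled CYP1B1-/- held 3.16, 2.14, 6.20 and 3.48 CPM. All 4 libraries labelled CYP1B1-/- lay below all WT libraries, and so did all 4 labelled AhR-/-. Replicate 3 labelled CYP1B1-/- reached the highest value of the AhR-/- group. The log2 difference of CYP1B1-/- from WT was -1.11 (SE 0.30, adjusted p = 0.999), rank 7 by p among the 14161 genes tested. With this quasi-likelihood test, no member passed between the libraries labelled CYP1B1-/- and WT after HDM, where 0% of all genes passed, nor against AhR-/-, where 0.00706% did. At an unadjusted p under 0.05 there were 3 of 81 members against WT (1.65% of all genes) and 31 of 81 (38.3%) against AhR-/-, where 29.9% of all genes were. Against AhR-/-, 22 members (27.2%) and 20.5% of all genes passed with DESeq2, 18 (22.2%) and 17.4% with the likelihood ratio test, and 27 (33.3%) and 29.8% with voom, so that the members' share lay near that of all genes under each tool. Over both states in a single fit, the difference of Srbd1 from the mean of the other genotypes was -1.22 (SE 0.22, adjusted p = 0.0801), and 0.00601% of all genes passed there. The difference was 0.99 smaller after HDM than at steady state (SE 0.42, adjusted p = 0.9997), and this change with HDM did not pass the test.

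**Figure D1:**
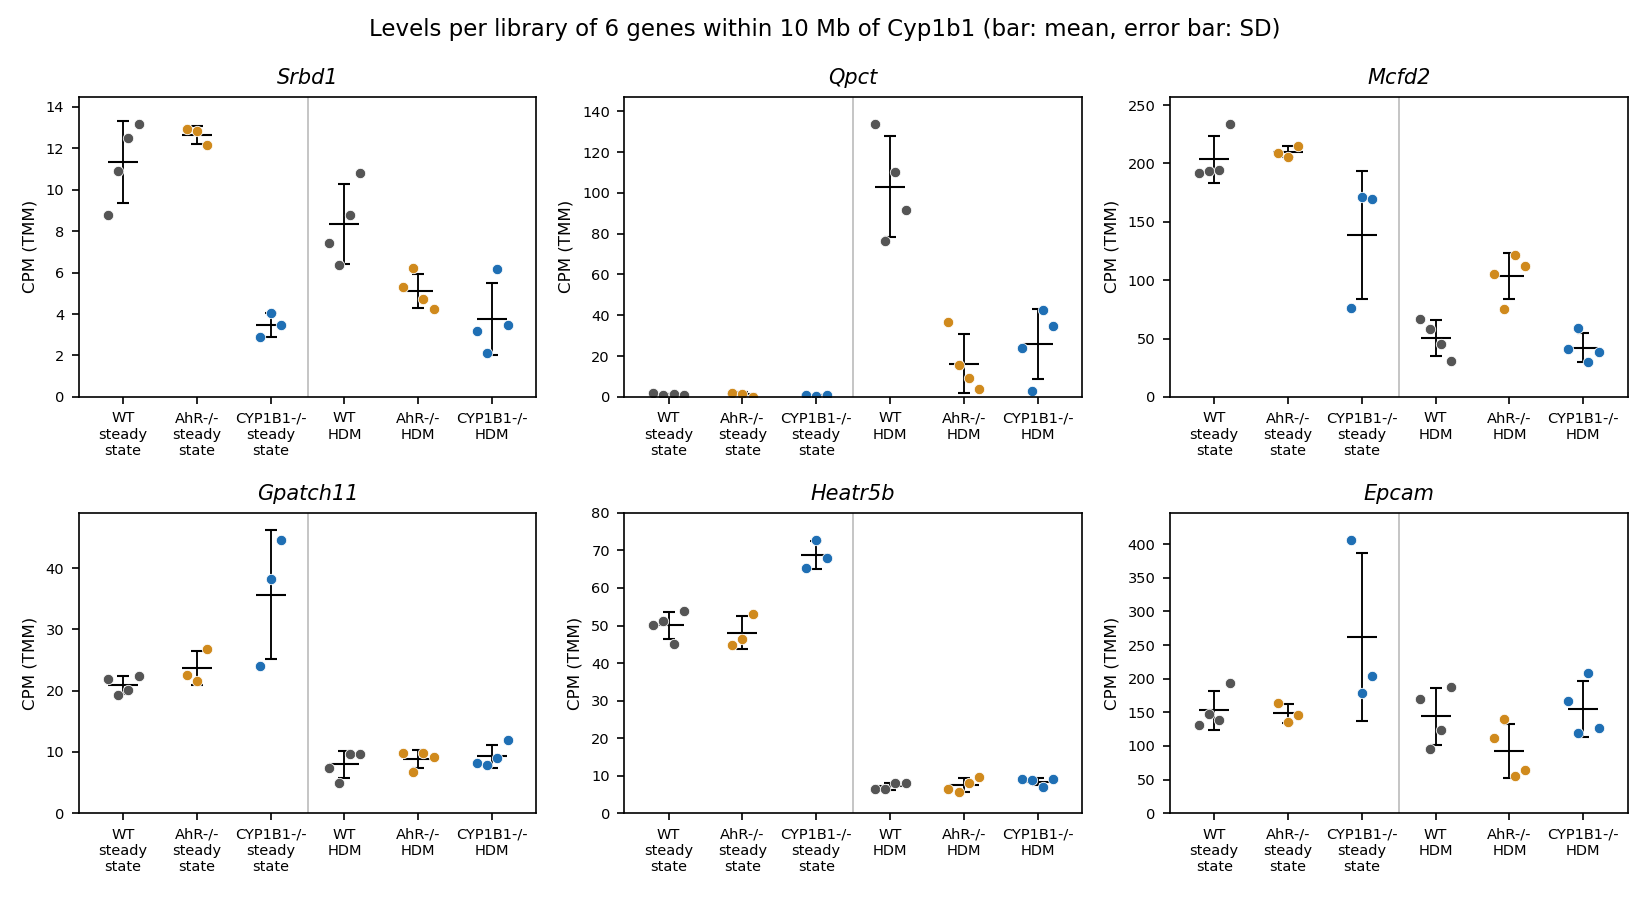
Each panel plots the TMM-scaled CPM of a gene (linear axis from 0) in every library, by genotype label and state, with a horizontal line for the mean and error bars for the SD (n = 3 or 4 libraries). For Srbd1, the steady-state libraries labelled CYP1B1-/- lie between 2.91 and 4.07 CPM, below all others, while Gpatch11 and Heatr5b lie higher in that group at steady state.

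Qpct, which encodes glutaminyl-peptide cyclotransferase and lies 0.611 Mb from Cyp1b1, was the other member whose libraries labelled CYP1B1-/- lay below all WT libraries in both states. At steady state its level was low, at 1.81, 1.09, 1.18 and 1.02 CPM in WT and 0.904, 0.534 and 0.885 CPM in the libraries labelled CYP1B1-/-. After HDM, WT libraries held 134, 76.5, 110.4 and 91.4 CPM, and those labelled CYP1B1-/- held 23.7, 2.86, 42.8 and 34.5 CPM. The log2 difference from WT after HDM was -1.97 (SE 0.71, adjusted p = 0.999). The libraries labelled AhR-/- were low after HDM as well, at 3.71 to 36.7 CPM, and against WT Qpct fell there by 2.63 on the log2 scale (adjusted p = 0.0304). After HDM the hematopoietic marker Ptprc (CD45) was at 187 to 427 CPM in WT, 11.1 to 111 CPM in AhR-/- and 21.7 to 432 CPM in the libraries labelled CYP1B1-/-. Of 14 such markers, 13 had a lower value in CYP1B1-/- than in WT (median -0.45 on the log2 scale, 0 past the threshold), while their summed level was 2648 to 4774 CPM in WT, 591 to 6272 CPM in AhR-/- and 3255 to 4972 CPM in CYP1B1-/-. Their part in the result was not tested. A position below all WT libraries in both states was thus found for 2 of 78 members (2.56%), against 0.0221% of the 13567 genes tested in both tables, in either direction. The third gene of that count was Cyp1b1 itself, and the steady-state and HDM libraries share no samples. For both Srbd1 and Qpct, all HDM libraries labelled AhR-/- lay below all WT libraries as well.

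Against WT and AhR-/- as a single set, 5 of 84 members (5.95%) had no overlap with the libraries labelled CYP1B1-/- at steady state, while 1.18% of all genes tested did. Vit (vitrin, a matrix protein) and Heatr5b (a HEAT-repeat protein of membrane traffic) lay above, and Cebpz (a nucleolar factor of ribosome assembly), Srbd1 and Mcfd2 lay below. After HDM, 0 of 81 members were set apart in this way (0.162% of all genes), and in both states together 0 of 78 members were (0.00737% of all genes, which is Cyp1b1). The steady-state count was 13 without replicate 2 labelled CYP1B1-/- (15.1% of members and 6.8% of all genes), 9 without replicate 3 (10.3% and 3.92%), 9 without replicate 4 (10.3% and 4.47%) and 9 without WT replicate 4 (10.7% and 7.73%).

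Gpatch11 and Heatr5b are neighbours that start 203 bases apart on opposite strands, at 0.853 and 0.866 Mb from Cyp1b1. Gpatch11 encodes a G-patch protein, a class known for partners of RNA helicases. The DNA between the start of Heatr5b and the RefSeq start of Gpatch11 is shown because both members had higher values at steady state and start on either side of it. It is taken from the RefSeq promoter table (GRCm38.p6) at chr17:78835365-78835515, written on the strand of Gpatch11, and is GC-rich, at 67.5% over 151 bases.
Heatr5b-Gpatch11: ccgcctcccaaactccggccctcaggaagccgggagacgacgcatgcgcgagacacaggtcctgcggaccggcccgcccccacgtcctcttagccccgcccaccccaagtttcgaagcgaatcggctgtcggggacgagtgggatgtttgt

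Gpatch11 was at 21.8, 19.3, 20.1 and 22.4 CPM in WT and at 22.6, 21.5 and 26.8 CPM in the libraries labelled AhR-/- at steady state. The libraries labelled CYP1B1-/- held 24.1, 38.3 and 44.6 CPM, above all of WT, while replicate 2 overlapped AhR-/-. The log2 difference from both other genotypes was 0.68 (SE 0.18, adjusted p = 0.738), and without replicate 2 labelled CYP1B1-/- it was 0.90 with an adjusted p of 0.0140. Heatr5b was at 45.2 to 53.8 CPM in WT, 44.7 to 53.1 CPM in AhR-/- and at 65.4, 72.8 and 68.0 CPM in the libraries labelled CYP1B1-/-, with no overlap. Its log2 difference was 0.49 (SE 0.13, adjusted p = 0.738). Both genes passed when voom with sample weights was used in place of the quasi-likelihood test, at adjusted p-values of 0.00115 for Gpatch11 and 0.0429 for Heatr5b. After HDM, Heatr5b was at 6.87 to 8.96 CPM in the libraries labelled CYP1B1-/- and at 5.50 to 9.68 CPM in the others, so the groups overlapped.

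Mcfd2 encodes a cargo adaptor of the LMAN1 receptor, which carries coagulation factors from the endoplasmic reticulum to the Golgi, and lies 7.54 Mb from Cyp1b1. At steady state it was at 192, 194, 195 and 234 CPM in WT and at 209, 206 and 215 CPM in AhR-/-. The libraries labelled CYP1B1-/- held 75.8, 171 and 169 CPM, below all others, with replicate 2 far below the rest. The log2 difference from both other genotypes was -0.58 (SE 0.23, adjusted p = 0.738) at steady state and -0.78 (SE 0.26, adjusted p = 0.770) after HDM. Without replicate 2, the steady-state difference was -0.28. The 250 bases before its start in the RefSeq table (GRCm38.p6, chr17:87265948-87266197, minus strand) are given as the promoter of the member set apart at the highest level, and hold 71.2% G and C.
Mcfd2: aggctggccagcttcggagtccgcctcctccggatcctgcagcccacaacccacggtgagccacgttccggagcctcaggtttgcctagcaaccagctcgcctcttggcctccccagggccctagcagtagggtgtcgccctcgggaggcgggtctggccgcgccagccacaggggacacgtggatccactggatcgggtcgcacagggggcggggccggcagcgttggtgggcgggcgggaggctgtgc

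Promoter sequences were matched for 83 of the 105 members, and Srbd1, Heatr5b, Vit, Cebpz and Qpct were among the 22 without an entry. GCGTG is the core of the element that AhR binds with its partner ARNT, and it was searched on both strands of windows from 250 bases before to 50 after a start. It was found for 44 of the 83 members (53%) and for 42.6% of 16522 protein-coding genes of the table. The window between Heatr5b and Gpatch11 holds no such match, and that of Mcfd2 holds 2, which lie outside the bases printed.

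Counted over the stretch, 12 of 84 members (14.3%) had an unadjusted p under 0.05 between the libraries labelled CYP1B1-/- and both other genotypes at steady state, 9 of them higher and 3 lower. Over all genes tested the share was 6.67% (3.53% higher and 3.14% lower), over the rest of chromosome 17 it was 6.56%, and over the 61 tested genes within 10 Mb of Ahr 9.84%. Against WT alone, 11 of 84 members (13.1%) and 5.8% of all genes were past this value, and against AhR-/- alone 9 members (10.7%) and 4.23% of all genes. Between AhR-/- and WT at steady state, 0 of 84 members and 1.69% of all genes were. With a library left out, the members' share against both other genotypes ranged from 11.2% (4.35% of all genes) to 18.4% (10.7%), and without WT replicate 4 it was 14.3%, with 13% of all genes. Against AhR-/- it was 5.81% without AhR-/- replicate 1 (2.29% of all genes) and 6.74% without AhR-/- replicate 3 (2.3%), and against WT it was 8.33% without WT replicate 1 (2.51%). These comparisons share libraries, and neighbouring genes are not independent.

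After HDM, 3 of 81 members (3.7%) had an unadjusted p under 0.05 between the libraries labelled CYP1B1-/- and WT, against 1.65% of all genes, and 11 of 81 (13.6%) against both other genotypes, where 5.01% of all genes and 9.26% of those within 10 Mb of Ahr did. These counts moved with single libraries. Against both other genotypes there were 3 members without replicate 1 labelled CYP1B1-/- (3.61%, and 2.64% of all genes), 5 without its replicate 3 (6.1% and 2.59%), 6 without AhR-/- replicate 1 (7.41% and 4.65%), 6 without AhR-/- replicate 4 (7.23% and 2.95%), 7 without AhR-/- replicate 3 (8.43% and 3.07%), 7 without WT replicate 1 (8.43% and 2.78%) or 2 (8.43% and 3.13%), and 17 without AhR-/- replicate 2 (21% and 12.7%). Against WT there were 8 without replicate 3 labelled CYP1B1-/- (9.76% and 5.19%) and 2 without its replicate 1 (2.41% and 1.11%) or 2 (2.41% and 0.982%). Between CYP1B1-/- and AhR-/- the shares were 38.3% of members and 29.9% of all genes. The AhR-/- group itself differed widely from WT after HDM, with 22 of 81 members (27.2%) and 22.1% of all genes at an adjusted p of at most 0.05. The median absolute log2 difference from both other genotypes was 0.19 for members and 0.21 for all genes at steady state, and 0.27 and 0.28 after HDM. In size, the members as a set were thus close to all genes.

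**Figure D2:**
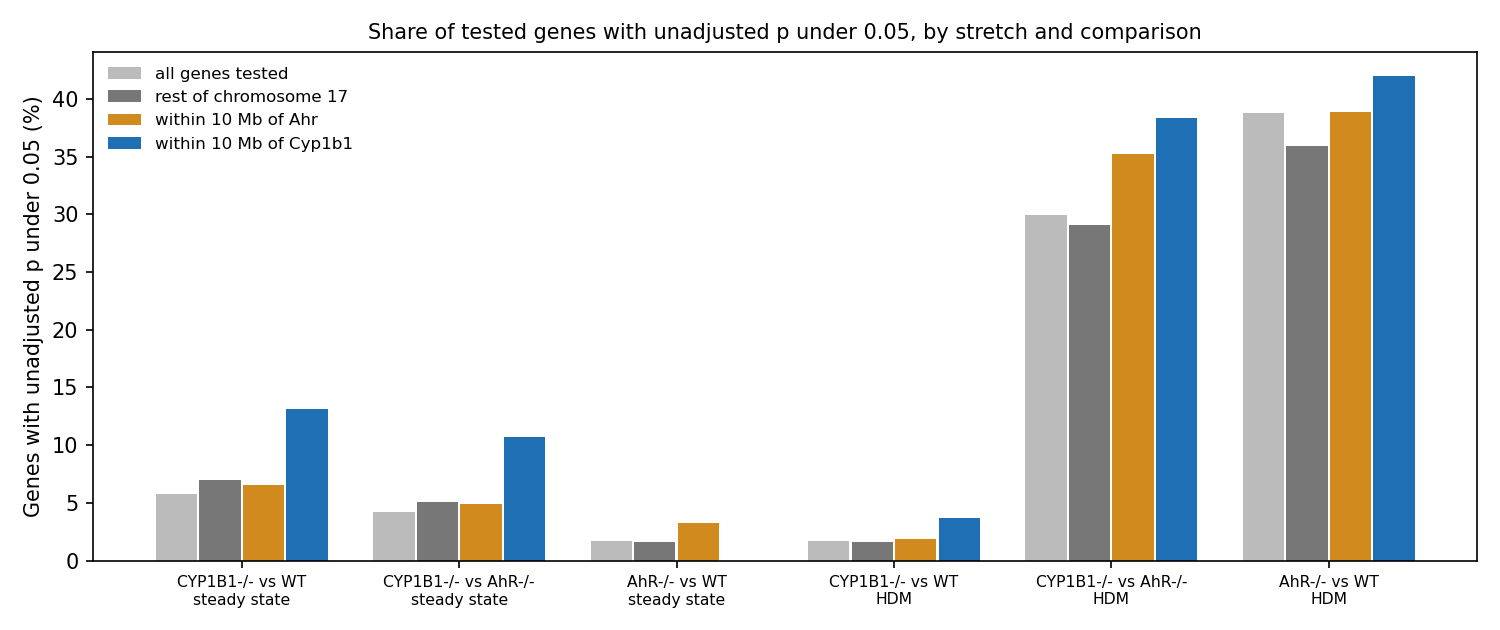
Bars (linear axis from 0) give the percent of tested genes with an unadjusted p under 0.05 in 6 comparisons, for all genes, the rest of chromosome 17, the genes within 10 Mb of Ahr and those within 10 Mb of Cyp1b1. Genes near Cyp1b1 reach 13.1% and 10.7% in the steady-state comparisons of CYP1B1-/-, and 0% between AhR-/- and WT.

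Position within the stretch gave no simple order. At steady state, 6.67% of all genes had an unadjusted p under 0.05 against both other genotypes. The members that did were 5 of 27 (18.5%) within 2.5 Mb of Cyp1b1 and 1 of 11 (9.09%) from 2.5 to 5 Mb. Farther out they were 3 of 23 (13%) from 5 to 7.5 Mb and 3 of 23 (13%) from 7.5 to 10 Mb. On the side of lower coordinates there were 7 of 41 (17.1%), and on the other side 5 of 43 (11.6%). In bins of 5 Mb along chromosome 17, without Cyp1b1, the bin from 75 to 80 Mb held 4 of 18 genes past this value (22.2%) and the bin from 85 to 90 Mb 3 of 22 (13.6%). Outside the stretch, the bin from 50 to 55 Mb held 3 of 12 (25%) and that from 15 to 20 Mb 4 of 29 (13.8%). The 5 tested members nearest on each side were Rmdn2, Cdc42ep3, Qpct, Prkd3 and Ndufaf7 at lower and Atl2, Hnrnpll, Galm, Srsf7 and Gemin6 at higher coordinates. Of these, only Prkd3 (protein kinase D3) was among the 12 members counted above, with a log2 difference of -0.32 (SE 0.14, adjusted p = 0.738). Rmdn2, the closest at 0.0083 Mb, had a difference of -0.05 (SE 0.16).

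**Figure D3:**
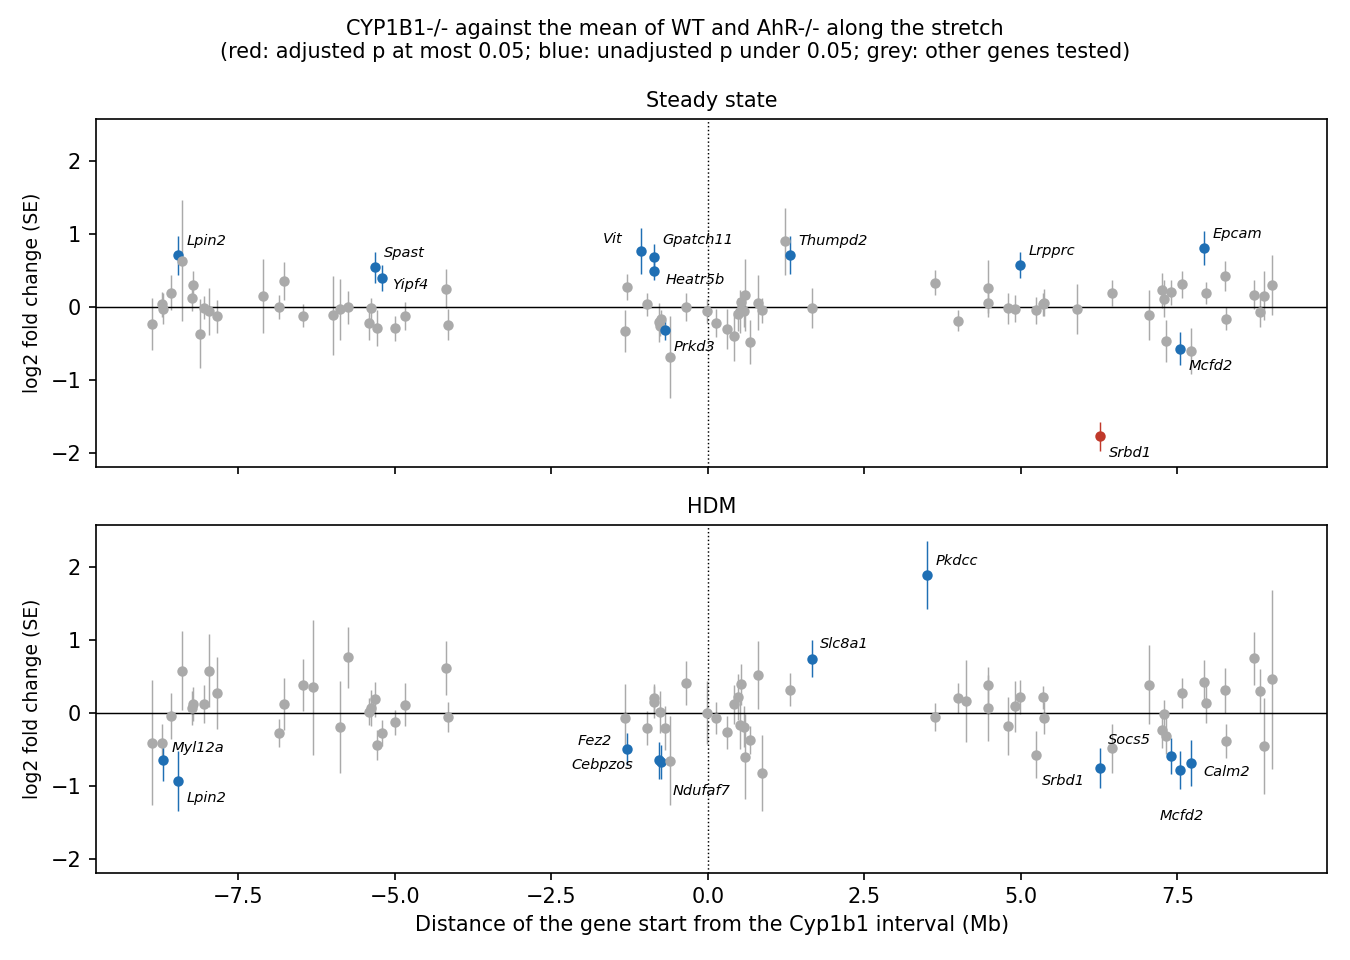
Each point is a tested member, by the distance of its nearer end from Cyp1b1 (Mb), although the axis title names the gene start. The other axis is its log2 fold change in the libraries labelled CYP1B1-/- against the mean of WT and AhR-/-. Error bars give the SE, at steady state (above) and after HDM (below). Srbd1, in red, lies at -1.77 at steady state and -0.76 after HDM, and most other members lie near 0.

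The members fall into groups by what their products do. Of 13 tested members of RNA processing and translation, Srbd1 was the only one to pass the quasi-likelihood test at steady state. At an unadjusted p under 0.05, 4 others had higher values, Gpatch11, Heatr5b, Lrpprc and Thumpd2, in a comparison where 3.53% of all genes were past this value and higher. Heatr5b was placed in this list although its product is known for membrane traffic. Lrpprc, a stabilizer of mitochondrial mRNA, was at 42.0 to 59.9 CPM in WT, 46.8 to 52.1 CPM in AhR-/- and at 94.1, 67.4 and 54.6 CPM in the libraries labelled CYP1B1-/-. Its log2 difference from both genotypes was 0.57 (SE 0.18, adjusted p = 0.738) at steady state, 0.34 without replicate 2 labelled CYP1B1-/-, and 0.22 (SE 0.23) after HDM. Thumpd2, a methyltransferase of small nuclear RNA, was at 10.8, 5.40 and 5.23 CPM in the libraries labelled CYP1B1-/- and at 3.52 to 5.90 CPM in the others, and its log2 difference without replicate 2 was 0.29 (SE 0.25). The splicing factor Srsf7 had a difference of -0.10 (SE 0.23) and Wdr43, of ribosome assembly, -0.01 (SE 0.16). Over the 13 genes the median was -0.06 at steady state, where that of all genes was -0.04.

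Among 13 tested members of adhesion, matrix and cytoskeleton, 0 passed the quasi-likelihood test at steady state. At an unadjusted p under 0.05, 2 had higher values, Epcam and Vit (0.76, SE 0.31), where 3.53% of all genes were higher. Epcam, the surface protein by which the cells were sorted, was at 131, 147, 139 and 194 CPM in WT, at 136 to 164 CPM in AhR-/- and at 406, 178 and 204 CPM in the libraries labelled CYP1B1-/-. The log2 difference was 0.80 (SE 0.23, adjusted p = 0.738), and 0.35 without replicate 2. After HDM, Epcam was at 119 to 209 CPM in the libraries labelled CYP1B1-/- and at 54.6 to 188 CPM in the others. Myl12a and Myl12b, regulatory light chains of non-muscle myosin, differed by -0.02 (SE 0.22) and 0.04 (SE 0.17) at steady state.

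In membrane traffic and organelles, 0 of 15 tested members passed the quasi-likelihood test at steady state, with 2 higher and 1 lower at an unadjusted p under 0.05, where 3.53% of all genes were higher and 3.14% lower. The member with the lower value was Mcfd2, and the higher ones were Spast, which encodes the microtubule-severing spastin (0.54, SE 0.21), and Yipf4 (0.39, SE 0.17). Without replicate 2 labelled CYP1B1-/- these were 0.14 (SE 0.14) and 0.18 (SE 0.14). Yipf4 was at 490, 319 and 344 CPM in the libraries labelled CYP1B1-/- and at 230 to 352 CPM in the others, so the groups overlapped. Ypel5 had a difference of 0.00 (SE 0.16).

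Of the kinases, phosphatases and signalling genes, 11 members were tested in each state, and 0 passed the quasi-likelihood test in the comparisons of the libraries labelled CYP1B1-/-. Calm2 was at 580 to 821 CPM in WT and AhR-/- at steady state and at 171, 646 and 537 CPM for CYP1B1-/-, where replicate 2 stood apart, and the log2 difference without it was -0.22 (SE 0.14). Pkdcc, a secreted tyrosine kinase of the matrix, passed the filter on low counts in the HDM table and in the fit over both states, but not in the steady-state table. At steady state it had 23, 10 and 6 counts in the libraries labelled CYP1B1-/-, 5 to 8 in WT and 3 to 5 in AhR-/-. After HDM it was at 4.57, 5.23, 1.31 and 1.25 CPM in the libraries labelled CYP1B1-/-, 0.816 to 1.36 CPM in WT and 0.364 to 0.891 CPM in AhR-/-. Its log2 difference from both genotypes was 1.88 (SE 0.46, adjusted p = 0.770). Over both states it was 1.61 (SE 0.33, adjusted p = 0.303), and it passed with DESeq2 at an adjusted p of 0.0404 and with the likelihood ratio test of edgeR at 0.0213. Replicates 1 and 2 labelled CYP1B1-/- carry this difference after HDM. There, 6 mesenchymal markers summed to 24.6 CPM in replicate 1 and 131 CPM in replicate 2. They summed to 13.1 to 48.1 CPM in WT and 36.1 to 59.7 CPM in AhR-/-, and their part was not tested. Map4k3, a kinase upstream of JNK, had a difference of -0.05 (SE 0.17) at steady state, and Sos1, a RAS activator, -0.49 (SE 0.30).

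The other 3 groups held no member past the threshold of the quasi-likelihood test in the comparisons of the libraries labelled CYP1B1-/-. Of DNA repair and chromatin, 7 members were tested and 0 were below an unadjusted p of 0.05 at steady state, with the chromatin protein Smchd1 at 0.30 (SE 0.19) and Fbxo11 (a ubiquitin ligase subunit) at -0.16 (SE 0.16). Of 4 tested transcription factors, Foxn2 differed by 0.16 (SE 0.20), Epas1, which encodes the hypoxia factor HIF-2α, by -0.11 (SE 0.34), and Lbh by 0.35 (SE 0.26). Of 13 tested members of metabolism and transport, only Lpin2, a phosphatidate phosphatase of lipid synthesis, was below an unadjusted p of 0.05 at steady state, where 6.67% of all genes were. It was at 1229.7, 450 and 662 CPM in the libraries labelled CYP1B1-/- and at 310 to 690 CPM in the others, a difference of 0.70 (SE 0.27) that was 0.22 (SE 0.20) without replicate 2, and the value after HDM was -0.93 (SE 0.42). The difference between states was -1.72 (SE 0.54, adjusted p = 0.9997), and 0 of 90 members passed for this interaction, where 0% of all genes did and 3.79% had an unadjusted p under 0.05.

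Hematopoietic markers were highest in some WT libraries at steady state. Of 12 tested hematopoietic markers, 12 were lower in the libraries labelled CYP1B1-/- than in WT (median -1.90 on the log2 scale, 0 past the threshold). At an unadjusted p under 0.05 there were 5 of the 12, where 5.8% of all genes were. Against AhR-/- 7 were lower (median -0.23), and 0 of the 12 had an unadjusted p under 0.05. In sum, 14 hematopoietic markers reached 270 to 557 CPM in the libraries labelled CYP1B1-/-, 576 to 2069 CPM in WT and 294 to 1308 CPM in AhR-/-. Their mean log2 CPM was 1.53 to 2.26 in CYP1B1-/-, inside the WT range of 1.27 to 4.46, with WT replicates 1 (4.46) and 2 (3.03) above the rest. With the mean of this list as a covariate, Srbd1 fell by 1.84 against WT (adjusted p = 0.0212). What part hematopoietic cells have in the values of Srbd1 or other members was not tested. Fewer cells of a type and less RNA per cell cannot be told apart in these bulk libraries.

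Among noncoding genes of the same stretch, which are no members, a lincRNA was nearly absent from the libraries labelled CYP1B1-/-. AC122818.3 (ENSMUSG00000117486, chromosome 17, 87464640 to 87473742, minus strand) lies 7.75 Mb from Cyp1b1, between Calm2 and Epcam, and no function is assigned to it here. It was singled out after its values were seen. At steady state it had 41, 35, 47 and 74 counts in WT, 45, 39 and 30 in AhR-/- and 0, 0 and 2 in the libraries labelled CYP1B1-/-. Per normalized library size, that is 1.33% of the WT level (95% exact interval 0.159 to 4.85, covering counting error only). After HDM it had 12, 2, 2 and 6 counts in WT, 31, 4, 4 and 11 in AhR-/- and 1, 0, 0 and 2 in the libraries labelled CYP1B1-/-, 14.1% of the WT level (interval 2.70 to 46.9). In a fit over all genes listed, it passed at steady state against WT (adjusted p = 0.00403, where 0.0139% of all genes passed) and over both states against the other genotypes (adjusted p = 0.000412, where 0.0253% passed). It was not among the 26 noncoding genes of the stretch that were tested in the HDM table, so no test of it was made after HDM alone. Of the noncoding genes of the stretch, 35 were tested at steady state, and the next lowest p against WT had an adjusted p of 0.609. The first 300 of the 549 bases of its annotated transcript (GENCODE M21, GRCm38) are given because its reads are what the libraries labelled CYP1B1-/- lacked.
AC122818.3: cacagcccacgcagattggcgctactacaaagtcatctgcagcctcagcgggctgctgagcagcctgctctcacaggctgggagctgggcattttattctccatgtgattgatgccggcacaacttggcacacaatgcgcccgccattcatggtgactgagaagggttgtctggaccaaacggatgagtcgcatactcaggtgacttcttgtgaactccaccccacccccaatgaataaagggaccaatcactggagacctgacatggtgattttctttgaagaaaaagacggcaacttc

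**Figure D4:**
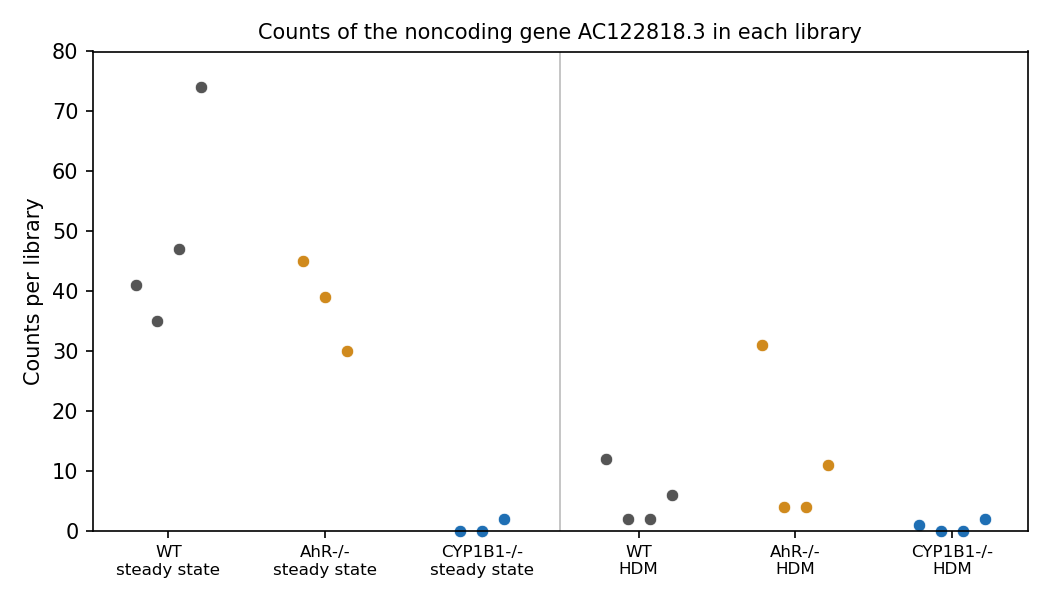
Points give the counts of AC122818.3 in each library (linear axis from 0), by genotype label and state. The steady-state libraries labelled CYP1B1-/- hold 0 to 2 counts, those of WT and AhR-/- 30 to 74.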

How the data were processed

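Reads of sorted lung ECs were counted per gene in 22 libraries. The authors used bbduk for trimming, GSNAP for alignment against mm10, and featureCounts 2.0.0 with Ensembl annotation to obtain a value per gene. What they deposited are raw counts. How strand and reads with several positions were treated is not given in the sources used here, so reads of overlapping genes on opposite strands, which concern 35 members, cannot be told apart.

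Positions and gene types came from GENCODE M21, of the same build, in which 54147 of 54373 identifiers were found. In R 4.3.3, protein-coding genes were filtered with filterByExpr of edgeR 4.0.16 (minimum count 10, minimum total count 15), normalized with TMM and tested with glmQLFit (robust) and glmQLFTest, with all 3 genotypes of a table in a fit, and p-values were adjusted over all genes tested (Benjamini-Hochberg, threshold 0.05). SE was derived from each log2 fold change and its F statistic. CPM use TMM library sizes, on which 3 counts equal 0.181 to 0.301 CPM at steady state and 0.0742 to 1.09 CPM after HDM.

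Named members were those past the threshold, the 12 with the lowest p over both states, the 5 nearest tested on each side, Srbd1 and Epcam, and the 3 highest of each functional list, of which 1 is not reported here. Others were named for a separated position or an unadjusted p under 0.05 after their values were seen. The members and lists were chosen with earlier results of these data known, Srbd1 among them. Alternatives included DESeq2 1.42.0, voom of limma 3.58.1, other normalizations and filters, a replicate block, a hematopoietic covariate and each library left out. The code was tested on simulated data. The labels do not say whether replicates are separate mice, so p-values measure the spread between these libraries. Of 20 pairs of same-numbered libraries, 5 correlated above 0.1 in their deviations from the group means (from -0.33 to 0.71). Not every pair did, so numbers were not taken as pairs.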

Additional observations from a re-analysis of the deposited data

Results flagged for a closer look

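For the named members, 136 groups of 4 libraries were screened for a library far from its group, and 7 were found, where chance gives about 1 in 20 groups. At steady state, WT replicate 4 was high for Mcfd2 (234 CPM, the next at 195), Thumpd2 (5.90 CPM, the next at 4.13) and Lbh (9.27 CPM, the next at 5.99), and WT replicate 2 was low for Prkd3 (32.9 CPM, the next at 37.1). After HDM, replicate 3 labelled CYP1B1-/- was low for Heatr5b (6.87 CPM, the next at 8.80). In the HDM libraries labelled AhR-/-, replicate 1 was high for Hnrnpll (30.9 CPM, the next at 21.1) and replicate 2 low for Slc30a6 (11.8 CPM, the next at 18.6).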

How the results depend on the processing

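Of the 49 values of named members that were recomputed, 40 kept their direction under every alternative run, Srbd1 in all of its comparisons among them. Of 13 fits with another tool, filter, normalization or model, Srbd1 passed at steady state in 11 against WT and in 11 against AhR-/-. The call of Srbd1 was lost with the replicate block, given below, and in a fit of the compared groups alone. In the latter it was at -1.70 from WT (adjusted p = 0.324) and -1.85 from AhR-/- (adjusted p = 0.407), where 0 members passed. With each library left out in turn it ranged from -1.83 to -1.58 from WT and was past the threshold in 2 of 10 fits (without WT replicate 1 or CYP1B1-/- replicate 2), from -1.99 to -1.74 from AhR-/- (2 of 10) and from -1.91 to -1.66 from both (5 of 10). Over both states it ranged from -1.45 to -1.16 (7 of 22). Counts of members called over both states were 1 with all genes (0.0253% of all genes tested passed), RLE or upper quartile normalization (0.018% each), voom (0.0361%), without dominant predicted genes (0.0166%) and without the HDM libraries with Y-linked reads (0.0116%), and 2 with DESeq2 and the likelihood ratio test (0.0361% each). With voom, 3 members passed at steady state against both genotypes (14 of 15547 genes did), 2 against WT (12 genes) and 2 against AhR-/- (11 genes). Against AhR-/- after HDM, 22 passed with DESeq2 (20.5% of all genes did), 18 with the likelihood ratio test (17.4%) and 27 with voom (29.8%). With a library left out, these counts ranged from 0 to 20 against AhR-/- after HDM (20 without replicate 2 of AhR-/- or of CYP1B1-/-, where 18.8% and 20.7% of all genes passed), 0 to 1 against AhR-/- (at most 0.0442% of all genes) and 0 to 2 against WT and both genotypes (at most 0.0253%) at steady state, and 0 to 1 over both states (at most 0.0182%). Separated members were 9 at steady state (3.07% of all genes), 3 after HDM (1.19%) and 2 in both (0.0221%) against WT only, 8 at steady state with upper quartile normalization (1.07%) and 1 after HDM in CPM without TMM (0.0141%). With a library left out they were 5 to 13 at steady state (1.31% to 7.73% of all genes), 0 to 2 after HDM (0.186% to 0.581%) and 0 to 1 in both (0.00704% to 0.0148%).

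With the replicate number as a block, Srbd1 was at -1.74 from WT (adjusted p = 0.20), -1.87 from AhR-/- (adjusted p = 0.260) and -1.81 from both (adjusted p = 0.226) at steady state, and 0 members passed there. At an unadjusted p under 0.05 there were then 7, 10 and 3 of 84 members against both, WT and AhR-/- (2.22%, 2.31% and 1.99% of all genes), and 6 of 81 against WT after HDM (2.36%).

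Values over both states turned for Epas1 (-0.069) and Srsf7 (-0.029) without the HDM libraries with Y-linked reads, for Galm (0.013), Gemin6 (0.066), Rmdn2 (0.21) and Yipf4 (-0.071) with voom, and for Rmdn2 with at least 10 counts in every library (0.0086) and upper quartile normalization (0.0104). With a library left out, ranges that held both signs were -0.16 to 0.28 for Epas1, -0.35 to 0.019 for Galm, -0.23 to 0.029 for Gemin6, -0.37 to 0.0020 for Lpin2, -0.29 to 0.046 for Rmdn2, -0.046 to 0.21 for Srsf7, -0.080 to 0.17 for Wdr43, -0.051 to 0.13 for Yipf4 and, at steady state, -0.13 to 0.37 for Foxn2. The causes were not tested. After HDM, Srbd1 had 9 to 184 reads in the libraries labelled CYP1B1-/-.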
